A study of Mus musculus with 6 samples.

Results

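The laminin chains are the subunits of the main adhesive protein of basement membranes. They were taken as the genes of the deposited expression table whose symbol is *Lama1*, *Lama2*, *Lama3*, *Lama4*, *Lama5*, *Lamb1*, *Lamb2*, *Lamc1* or *Lamc3*. All 9 were found among the 23997 genes of the table, and all 9 passed the filter that left 12955 genes for testing (a mean of at least 1 FPKM over all libraries). FPKM counts sequenced fragments relative to the length of the transcript and to the size of the library. *Lamb3*, a further β chain, was used only in the class sums below.

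RNA-Seq was performed on the ductus arteriosus (DA), the fetal artery between the aorta and the pulmonary artery, of C57BL/6 mouse embryos at E17.5. There were 3 libraries of wild-type littermates (WT0, WT1 and WT2) and 3 of *Prdm6f/f; SM22-Cre* embryos (KO0, KO1 and KO2). In the KO embryos both alleles of *Prdm6*, which encodes a histone methyltransferase of SMCs, are floxed, and Cre is driven by the promoter of *Tagln* (SM22), used to target SMCs, whereas the libraries hold all cells of the dissected vessel. The labels do not say whether a library holds 1 embryo or a pool, or whether the WT littermates carried Cre or floxed alleles, so p values measure the spread between these libraries.

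Each laminin is a trimer of an α, a β and a γ chain, joined through a coiled coil and secreted as a cross-shaped molecule. Laminins polymerize into a sheet on the cell surface, held by integrins and dystroglycan, and are linked by nidogen to the collagen IV network. In blood vessels α4 and α5 are known from the endothelial basement membrane, α2 surrounds muscle fibers and Schwann cells, β1 is widespread in embryos, and β2 is known from mature arterial smooth muscle, neuromuscular synapses and the kidney glomerulus. The γ1 chain is shared by most laminins.

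Several facts of the libraries bear on the results. The FPKM of *Prdm6* was 41.7, 48.4 and 19.8 in WT0, WT1 and WT2 and 48.6, 27.1 and 15.4 in KO0, KO1 and KO2. The groups therefore overlapped, and the sources used here do not say which part of the gene is floxed, so its FPKM cannot test the labels. The defining smooth muscle transcripts were present in every library, with *Acta2* between 396 and 2262 FPKM. KO0 held both *Xist*, from the inactive X chromosome, at 81.0 FPKM and *Ddx3y*, from the Y chromosome, at 26.4 FPKM, whereas each other library was above 1 FPKM for 1 of them alone. The sources used here do not say how KO0 came to hold both, so values are also given without it. The 12 heart muscle markers summed to 1790 FPKM in WT1 and 2047 FPKM in KO2 but to between 68.4 and 594 FPKM in the other libraries. In each library 34 to 61 of the 3506 genes with a mean of at least 20 FPKM were listed at 0, most in WT2, so that a value of 0 may be a failed estimate. Summed FPKM was between 412200 and 818500, and *Scarna2*, a small RNA, made up 50.7% of it in KO2 and was listed at 0 in the 5 other libraries. The total depth is unknown, since FPKM holds no counts. Relative depth, read from the steps between low values, was between 0.93 and 1.19 times that of WT1. This is a rough estimate, from 69 to 129 genes a library, of which 13.2% to 19.2% lay at the most frequent ratio.

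*Lamc1*, which encodes γ1, was the most abundant laminin chain in each of the 6 libraries. Since FPKM is scaled for length, levels of chains can be set beside each other. In WT, mean FPKM was 90.1 for *Lamc1*, 64.6 for *Lamb2*, 63.3 for *Lamb1*, 49.3 for *Lama4*, 37.2 for *Lama2*, 17.6 for *Lama5*, 6.61 for *Lamc3*, 3.90 for *Lama3* and 1.48 for *Lama1*. The WT values of *Lamc1* lay above all those of *Lamb2*, those of *Lama2* above all those of *Lama5*, and those of *Lama5* above all those of *Lamc3*. The other neighbours in this order overlapped between libraries and were not distinct beyond their spread. The 5 chains with a mean of at least 30 FPKM over all libraries were thus *Lamc1*, *Lamb1*, *Lama4*, *Lamb2* and *Lama2*. The DA of these embryos carried mainly transcripts for α4, α2, β1, β2 and γ1, with α5 behind them and little for α1, α3 or γ3.

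**Figure D1:**
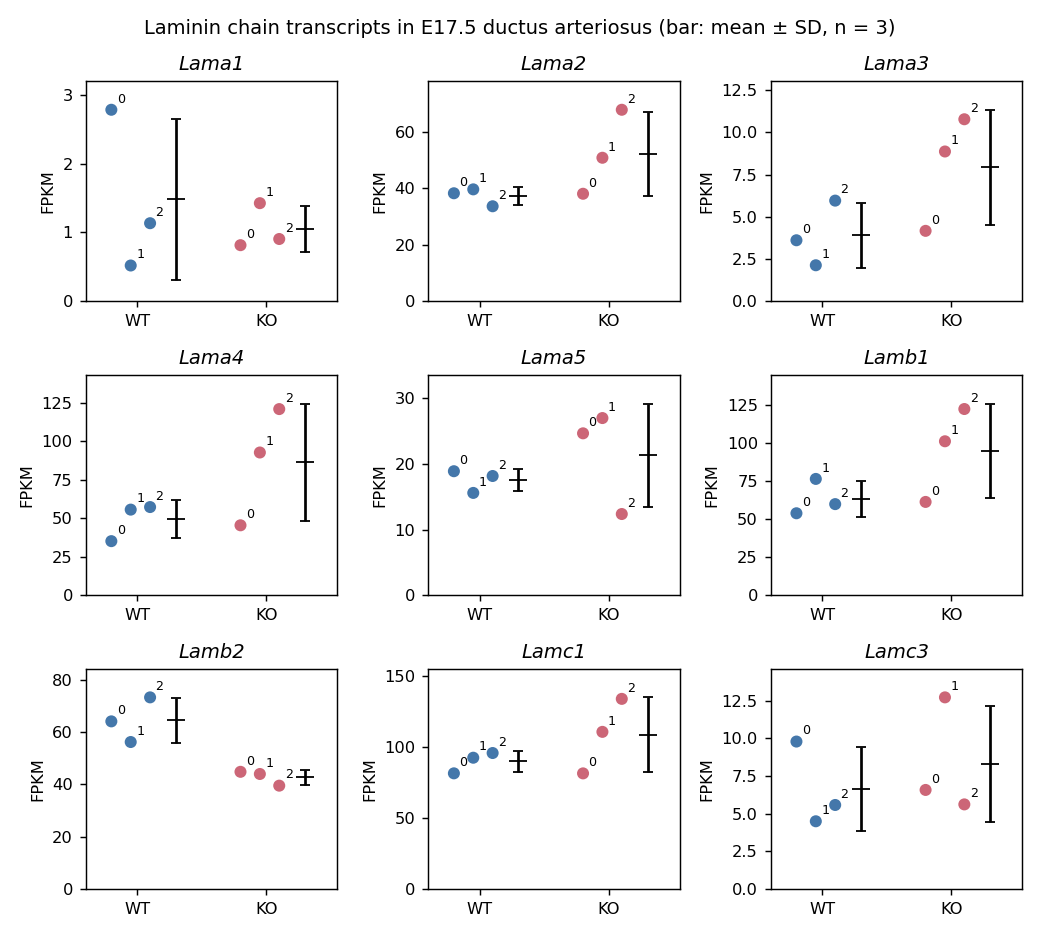
FPKM (linear axis from 0) of the 9 laminin chains in the 3 WT (blue) and 3 KO (red) libraries, where the digit beside each point is the library number and the black bar is the mean ± SD (n = 3). *Lamb2* has its 3 KO values between 39.5 and 44.8 FPKM, below all WT values, whereas *Lama2*, *Lama4*, *Lamb1* and *Lamc1* have KO1 and KO2 above all WT libraries and KO0 at the WT level.

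The β2 chain, encoded by *Lamb2*, was the laminin chain whose groups did not overlap. Its FPKM was 64.2, 56.2 and 73.3 in WT0, WT1 and WT2 and 44.8, 44.0 and 39.5 in KO0, KO1 and KO2, so that every KO library lay below every WT library. Mean FPKM was 64.6 ± 8.56 (SD, n = 3) in WT and 42.8 ± 2.85 (SD, n = 3) in KO. The log2 change from WT to KO on the scale of log2(FPKM + 0.1) was -0.59 (standard error 0.17, 95% interval from -0.98 to -0.19), or 0.67 times the WT level. In limma the unadjusted p was 0.00931 and the p adjusted over all 12955 genes was 0.524, which does not pass the threshold of 0.05. The two-sided exact permutation test gave p = 0.1, the smallest that 3 libraries against 3 allow, and exact p values between 0.2 and 0.8 for the other 8 chains. In bulk tissue, fewer cells of a type and less RNA per cell cannot be told apart.

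Among the 9 members, limma called 0 at an adjusted p under 0.05, where it called 1 gene, or 0.00772%, of all genes tested. That gene was *Rn45s*, a ribosomal RNA precursor, named here after its value was seen. At an unadjusted p under 0.05, 1 member, *Lamb2*, was counted, against 8.28% of all genes tested, of which 4.97% lower in KO and 3.31% higher in KO. These were 644 and 429 genes, and 914 and 124 genes with the libraries scaled to the same summed FPKM. Likewise 1 member had groups that did not overlap, against 16.1% of all genes tested, or 7.84% for those lower in KO. A single member of 9 is close to both background shares. *Lamb2* had the smallest standard error of the 9, and 229 of the tested genes had a smaller unadjusted p.

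The other widespread β chain, *Lamb1*, lay the other way. It was at 53.8, 76.4 and 59.8 FPKM in the WT libraries and at 61.2, 101 and 122 FPKM in KO0, KO1 and KO2. KO1 and KO2 lay above all WT libraries, whereas KO0 lay among them. The log2 change was 0.54 (standard error 0.28, 95% interval from -0.10 to 1.19, adjusted p = 0.639 from limma), 0.83 without KO0 and 0.33 without KO2. The ratio of *Lamb1* to *Lamb2* FPKM within a library was 0.84, 1.36 and 0.82 in WT0, WT1 and WT2 and 1.37, 2.30 and 3.09 in KO0, KO1 and KO2. The lowest KO ratio thus lay just above the highest WT ratio, and the mean log2 ratio differed by 1.13 between the groups, with values between 0.86 and 1.45 when each library was left out. This ratio sets a chain that was higher in KO against one that was lower, so it adds no support to either change, and it was given no test. As a share of all β chain FPKM, *Lamb2* made up 42.1% to 54.4% in WT and 23.7% to 41.3% in KO.

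The sequences before the start of both β chain genes are shown because these transcripts lay in opposite directions. They come from RefSeq on GRCm38.p6 and were searched on both strands over the 250 bases before RefSeq's start of the gene for the CArG box, which binds serum response factor in smooth muscle genes. The other motifs were the GC box, spelled GGGCGG, and the CAAT box, whose letters on either strand were CCAAT. The TATA box was searched as the letters TATAAA, and the E-box as the letters CANNTG. For both genes GENCODE places the first exon further upstream, inside this window, and only the stretch before that exon is printed, 5′ to 3′ on the strand of the gene, with the GC box (on either strand) and the CAAT box in capitals. The *Lamb1* stretch is chr12:31265043-31265233 and the *Lamb2* stretch is chr9:108479612-108479735, both on the plus strand.
Lamb1: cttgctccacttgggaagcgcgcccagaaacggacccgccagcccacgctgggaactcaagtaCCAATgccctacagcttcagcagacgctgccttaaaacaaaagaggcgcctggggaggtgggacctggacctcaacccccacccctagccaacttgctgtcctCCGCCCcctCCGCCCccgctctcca
Lamb2: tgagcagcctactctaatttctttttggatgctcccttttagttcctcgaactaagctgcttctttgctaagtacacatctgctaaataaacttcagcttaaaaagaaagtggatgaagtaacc
The *Lamb1* window was 62.0% G and C with 14 CpG, and held 2 GC boxes and 1 CAAT box. The *Lamb2* window was 43.6% G and C with 3 CpG, and held neither. Over the 32851 promoters of the table the medians were 52.4% and 6 CpG, and 32.7% held a GC box and 33.8% a CAAT box. The E-box, held by 66.2% of promoters, was found in both windows, the TATA box (12.4%) and the CArG box (1.47%) in neither. The *Lamb1* gene spans chr12:31265234-31329644 and *Lamb2* spans chr9:108479736-108490530 on GRCm38, and no exon of either overlaps another annotated gene.

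Of the α chains, *Lama4* had the highest mean FPKM. It encodes a short α chain of endothelial and other vascular basement membranes. Its FPKM was 35.1, 55.6 and 57.2 in WT0, WT1 and WT2 and 45.4, 92.7 and 121 in KO0, KO1 and KO2. KO1 and KO2 exceeded every WT library and KO0 did not. The log2 change was 0.73 (standard error 0.37, 95% interval from -0.14 to 1.599, adjusted p = 0.639 from limma). Without KO0 it was 1.14 (unadjusted p = 0.00694, adjusted p = 0.591 from limma), and without KO2 it was 0.43.

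*Lama2*, the α chain of muscle and Schwann cell basement membranes whose loss causes congenital muscular dystrophy, was at 38.2, 39.6 and 33.6 FPKM in the WT libraries and at 38.1, 50.8 and 67.8 FPKM in KO0, KO1 and KO2. The WT libraries were close to each other, and again KO1 and KO2 lay above them with KO0 inside their range. The log2 change was 0.45 (standard error 0.23, 95% interval from -0.092 to 0.998, adjusted p = 0.639 from limma), 0.66 without KO0 and 0.25 without KO2. Annotation on the opposite strand, *Gm48084*, covers 631 of the 16338 exonic bases of *Lama2*. The sources used here do not state whether counting used strand, so that reads there cannot be told apart.

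*Lama2* was the only member with a RefSeq promoter entry that held a CArG box, and its sequence is shown for that reason. The 250 bases are chr10:27616943-27617192 on the minus strand of GRCm38.p6, inside the span of a longer annotated transcript of the same gene but free of exons, and the capitals mark the CArG box.
Lama2: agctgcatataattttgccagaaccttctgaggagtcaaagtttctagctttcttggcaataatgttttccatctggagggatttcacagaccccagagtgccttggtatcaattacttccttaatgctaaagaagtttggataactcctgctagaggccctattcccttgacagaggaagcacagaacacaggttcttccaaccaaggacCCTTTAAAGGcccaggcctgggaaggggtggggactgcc
The box begins 39 bases before that start, and the window held no CpG. *Lama5*, the fourth member with an entry, had 4 GC boxes and no CArG box. A match to these letters is a description of the sequence, and no binding was measured. *Lama1*, *Lama3*, *Lama4*, *Lamc1* and *Lamc3* had no entry.

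*Lama5*, the α chain of mature endothelial and many epithelial basement membranes, differed from *Lama2* and *Lama4* in its order of libraries. It was at 18.9, 15.6 and 18.2 FPKM in the WT libraries and at 24.7, 27.0 and 12.4 FPKM in KO0, KO1 and KO2. KO0 and KO1 lay above every WT library and KO2 lay below every one. The log2 change was 0.21 (standard error 0.32, 95% interval from -0.54 to 0.96, adjusted p = 0.841 from limma). The ratio of *Lama4* to *Lama5* was 1.86, 3.56 and 3.15 in WT0, WT1 and WT2 and 1.84, 3.43 and 9.77 in KO0, KO1 and KO2. KO2 stood far above the WT range, KO1 lay inside it and KO0 just below it, and without KO2 the mean log2 ratio turned from 0.52 to -0.13.

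*Lama3* and *Lama1* were low. *Lama3*, the α chain of the laminin that anchors epithelia at hemidesmosomes, was at 3.62, 2.13 and 5.96 FPKM in the WT libraries and at 4.17, 8.87 and 10.8 FPKM in KO0, KO1 and KO2. Its log2 change was 1.02 (standard error 0.55, 95% interval from -0.26 to 2.29, adjusted p = 0.649 from limma), and was 0.38 without WT1 and KO2, the libraries with most heart muscle transcript. Opposite-strand annotation covers 197 of its 10745 exonic bases. *Lama1*, an early embryonic and epithelial chain, was at 2.78, 0.52 and 1.13 FPKM in the WT libraries and at 0.82, 1.43 and 0.90 FPKM in KO0, KO1 and KO2. Its log2 change of -0.22 had a standard error of 0.98, and its direction depended on WT0, without which it was 0.36.

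The γ chains did not pass the test. *Lamc1* was at 81.6, 92.6 and 96.0 FPKM in the WT libraries and at 81.6, 111 and 134 FPKM in KO0, KO1 and KO2. As for *Lama4*, *Lama2* and *Lamb1*, KO1 and KO2 were above all WT libraries and KO0 was not. The log2 change was 0.25 (standard error 0.21, 95% interval from -0.24 to 0.74, adjusted p = 0.729 from limma), 0.44 without KO0 and 0.082 without KO2. *Lamc3*, a γ chain known from the nervous system, was at 9.78, 4.49 and 5.57 FPKM in the WT libraries and at 6.57, 12.7 and 5.61 FPKM in KO0, KO1 and KO2. Its log2 change was 0.31 (standard error 0.46, 95% interval from -0.76 to 1.38, adjusted p = 0.835 from limma), and opposite-strand annotation covers 382 of its 6091 exonic bases. *Lamc1* made up 89.3% to 96.0% of the summed FPKM of *Lamc1* and *Lamc3* in each library.

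**Figure D2:**
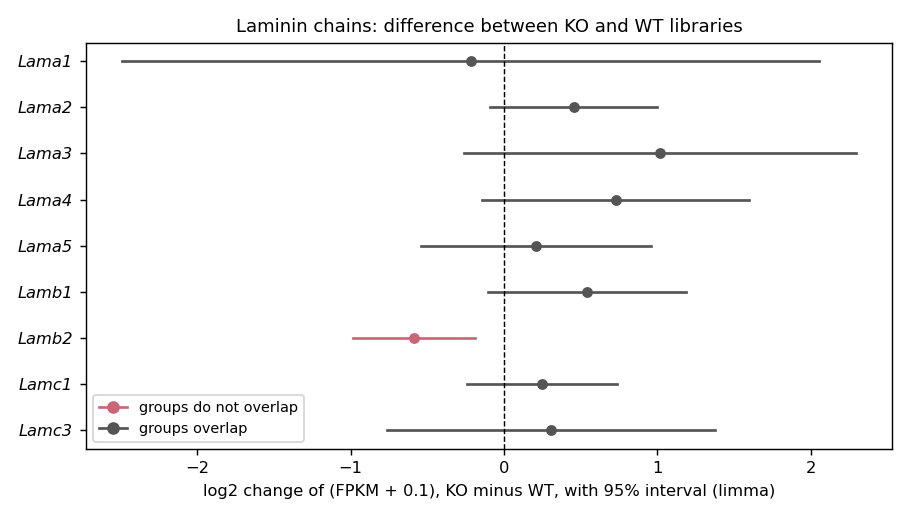
Log2 change of FPKM + 0.1 from WT to KO for each laminin chain, with its 95% interval from limma (3 libraries a group). The interval of *Lamb2*, in red, runs from -0.98 to -0.19, and the intervals of the other 8 chains span 0.

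Over the 9 chains, 7 had a positive and 2 a negative log2 change, and the median was 0.31. The median over all genes tested was 0.07. With the libraries scaled to the same summed FPKM, an alternative chosen after the values were seen, the median over all genes was -0.30 and the split was 4 positive and 5 negative, with *Lamc1* at -0.13, *Lama5* at -0.16 and *Lamc3* at -0.059. In KO2 the sum was 50.7% *Scarna2*, so this scaling lowered the other genes of that library. The sums of the other libraries also differed, at 556900, 412200 and 414700 FPKM in WT0, WT1 and WT2 and 439100 and 577600 FPKM in KO0 and KO1. The 10 genes highest over all libraries held 31% of the sum in WT0 and 36.8% in KO1, and 8.9% to 14% in WT1, WT2 and KO0. Without KO0, the low or variable chains *Lama1*, *Lama3*, *Lama5* and *Lamc3* had log2 changes of -0.072, 1.42, 0.064 and 0.43. Every interval but that of *Lamb2* included 0, and for the others the upper bound was at least 0.74, so that a difference of this size lay within each interval. The summed FPKM of the 9 chains was 308, 343 and 351 in WT0, WT1 and WT2 and 307, 450 and 514 in KO0, KO1 and KO2.

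Chains of a class can be compared by sums, since a laminin holds equal numbers of α, β and γ chains. The α class summed to between 98.6 and 116 FPKM in WT and between 113 and 213 FPKM in KO. The β class summed to between 121 and 135 FPKM in WT and between 109 and 167 FPKM in KO, and *Lamc1* and *Lamc3*, taken as the γ class, to between 91.4 and 101.5 FPKM in WT and between 88.2 and 139.8 FPKM in KO. The ratio of α to β class FPKM was 0.82, 0.85 and 0.86 in WT0, WT1 and WT2 and 1.04, 1.19 and 1.27 in KO0, KO1 and KO2. In WT the β chains thus exceeded the α chains in every library, and in KO the α chains exceeded the β chains in every library. The ratio of β to γ class FPKM was between 1.32 and 1.38 in WT and between 1.195 and 1.23 in KO, and that of α to γ class FPKM was between 1.08 and 1.17 in WT and between 1.28 and 1.52 in KO. These ratios were chosen after levels of the chains had been seen, combine members, and were given no test.

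**Figure D3:**
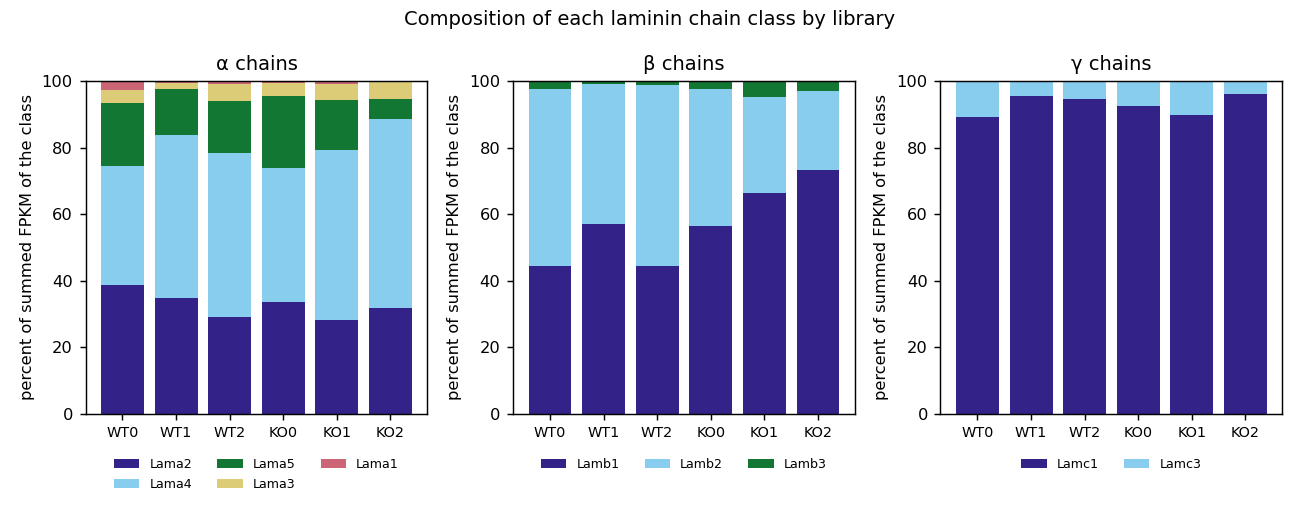
Share of each chain in the summed FPKM of its class (percent, stacked to 100) in each library, for the α chains, the β chains with *Lamb3* included, and *Lamc1* and *Lamc3*. *Lamb1* takes 44.3% to 57.1% of the β class in WT and 56.4% to 73.2% in KO, whereas *Lamc1* takes most of the γ class throughout.

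The chains that were high in KO1 and KO2 varied together over the 6 libraries. Pearson's r of log2(FPKM + 0.1) was 0.97 between *Lama4* and *Lamc1*, 0.96 between *Lama4* and *Lamb1*, 0.93 between *Lama2* and *Lamb1* and 0.88 between *Lama2* and *Lamc1* (n = 6 libraries, which share their depth and cell content). These values rest largely on KO1 and KO2. Over the 4 other libraries r was 0.88 for *Lama4* and *Lamc1* but -0.51 for *Lama2* and *Lamc1*. *Lamb2* had an r of -0.81 with *Lama2* and -0.76 with *Lamb1*, and of -0.64 and -0.28 over those 4 libraries.

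Summed markers of nerve were also highest in KO1 and KO2. The 10 Schwann cell markers summed to 24.3, 36.3 and 59.2 FPKM in WT0, WT1 and WT2 and to 43.6, 104 and 177 FPKM in KO0, KO1 and KO2. Of these 10, 8 had a positive and 2 a negative log2 change. *S100b*, of the 2 negative, was between 2.17 and 5.15 FPKM in WT and at 1.57, 0 and 3.93 FPKM in KO0, KO1 and KO2. In limma 4 were higher in KO at an unadjusted p under 0.05, against 3.31% of all genes tested, and 0 passed the adjusted threshold. *Sox10*, a transcription factor of the Schwann cell lineage, was between 1.41 and 2.41 FPKM in WT and at 1.94, 14.3 and 17.6 FPKM in KO0, KO1 and KO2. The 12 neuron markers, of which 7 were tested, summed to between 9.41 and 27.2 FPKM in WT and to 40.7, 57.2 and 73.0 FPKM in KO0, KO1 and KO2. In limma 3 of the 7 were higher in KO at an unadjusted p under 0.05, against 3.31% of all genes tested, and 0 passed the adjusted threshold. *Th*, which was not tested, was listed at 0 in all WT libraries and at 0.29, 0 and 1.87 FPKM in KO0, KO1 and KO2. KO0 had a Schwann cell sum inside the WT range but a neuron sum above the highest WT sum of 27.2 FPKM. Its *Lama2*, *Lama4* and *Lamb1* lay inside the WT range and its *Lamb2* below it. The part of nerve tissue in the levels of *Lama2*, *Lama4*, *Lamb1* and *Lamc1* was not tested.

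Of the 10 smooth muscle markers, 0 passed the adjusted threshold in limma. At an unadjusted p under 0.05, 6 were lower in KO, against 4.97% of all genes tested. The 10 markers summed to 5799, 2904 and 2522 FPKM in WT0, WT1 and WT2 and to 2415, 1812 and 925 FPKM in KO0, KO1 and KO2. All 10 had a negative log2 change, with a median of -1.56, and 6 of them had groups that did not overlap, against the background of 7.84% for genes lower in KO. None was listed at 0. The log2 change of *Lamb2* was -0.59. Within WT, *Lamb2* was highest in WT2 and the smooth muscle sum in WT0, whereas within KO both were highest in KO0 and lowest in KO2. The 6 pericyte and mural markers summed to between 442 and 1036 FPKM in WT and between 301 and 1025 FPKM in KO. In limma 2 of these pericyte and mural markers, *Kcnj8* and *Abcc9*, were lower in KO at an unadjusted p under 0.05, against 4.97% of all genes tested. The adjusted threshold was passed by 0 of them. *Pdgfrb*, a receptor of these cells, was between 35.6 and 37.6 FPKM in WT and between 27.5 and 38.7 FPKM in KO. *Kcnj8*, a channel of these cells, was at 32.8, 29.0 and 31.8 FPKM in WT and at 15.6, 15.2 and 13.3 FPKM in KO, and had an r of 0.96 with *Lamb2*. *Rgs5*, *Cspg4* and *Notch3* of the same list had log2 changes of -0.12, -0.19 and 0.17 (standard errors 0.61, 0.36 and 0.27). The part of smooth muscle or mural cell content in the level of *Lamb2* was not tested.

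Endothelial markers, which accompany α4 and α5 in vessels, summed to between 409 and 597 FPKM in WT and to 501, 760 and 682 FPKM in KO0, KO1 and KO2. Like the Schwann cell and neuron sums, the endothelial sum was highest in KO1 and KO2. All 12 endothelial markers were tested, and 9 had a positive and 3 a negative log2 change, with a median of 0.45. In limma 0 passed the adjusted threshold, and 1 was higher at an unadjusted p under 0.05, against 3.31% of all genes tested. None was listed at 0, and *Pecam1* was between 98.2 and 194 FPKM in WT and between 164 and 235 FPKM in KO. The part of endothelial cells in the levels of *Lama2*, *Lama4*, *Lamb1* and *Lamc1* was not tested. The 8 epithelial and mesothelial markers summed to between 66.7 and 233 FPKM in WT and between 82.1 and 185 FPKM in KO, beside the epithelial chain *Lama3*. Of the 6 tested, 4 had a positive and 2 a negative log2 change, with *Krt18* at -0.59 (standard error 0.60). *Krt8* of this list had an r of 0.93 with *Lama3*, whereas *Epcam* and *Cdh1* were under 1 FPKM in every library. The 11 tested heart muscle markers had a median log2 change of 0.12, and *Lamb2* had a log2 change of -0.63 without WT1 and KO2 and -0.62 without KO0. Fibroblast, macrophage and erythroid markers had median log2 changes of -0.14, -0.35 and 1.43. In limma 0 of these genes passed the adjusted threshold. Of the 8 fibroblast genes tested, 1 was higher (*Lum*) and 1 lower (*Dpt*) in KO at an unadjusted p under 0.05, against 8.28% of all genes tested. The same was reached by 0 of 7 macrophage genes and by 3 of 8 erythroid genes, these 3 higher in KO.

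**Figure D4:**
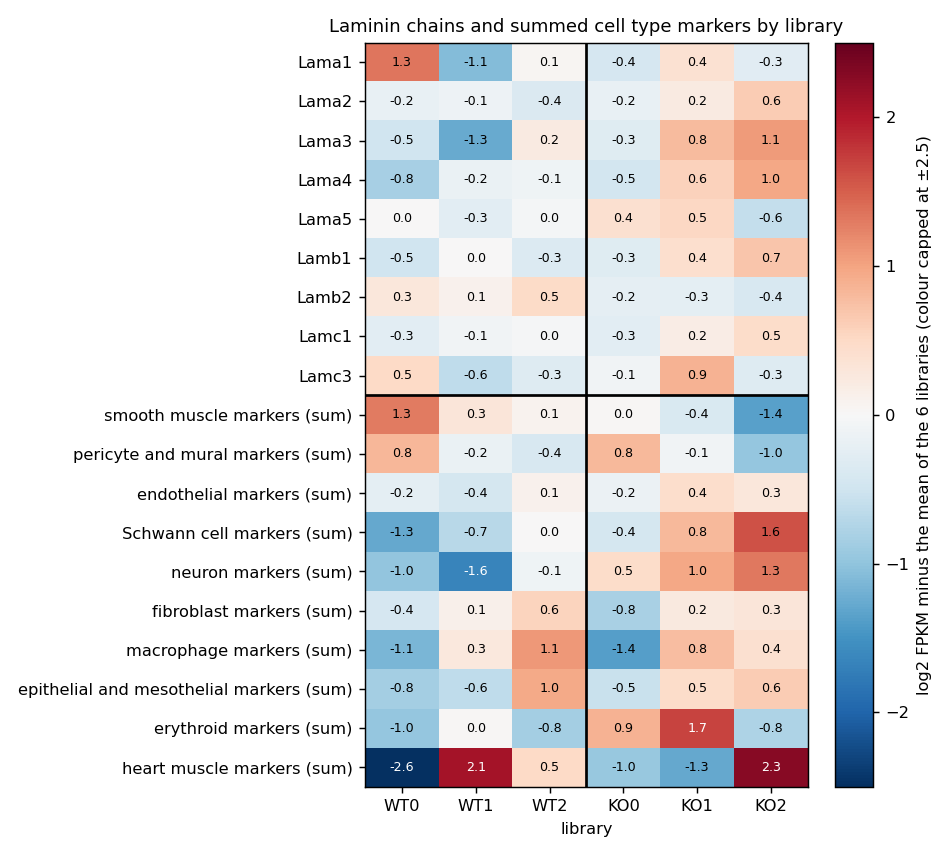
Log2 FPKM minus its mean over the 6 libraries (color and number in each cell) for the 9 laminin chains and, below the line, for the summed FPKM of each list of cell type markers. *Lama2*, *Lama4*, *Lamb1* and *Lamc1* are highest in KO1 and KO2, where the Schwann cell, neuron and endothelial sums are also highest, while *Lamb2* and the smooth muscle sum have their lowest value in KO2.

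The partners of laminin in the basement membrane did not pass the test. Of 18 such genes 17 were tested, 0 had an adjusted p under 0.05 in limma and 0 an unadjusted p under 0.05, and the median log2 change was -0.12. *Nid1*, the nidogen that bridges laminin γ1 to collagen IV, was at 154, 180 and 193 FPKM in the WT libraries and at 141, 223 and 216 FPKM in KO0, KO1 and KO2, with a log2 change of 0.11 (standard error 0.22). *Col4a1* and *Col4a2*, the chains of the main collagen IV, had log2 changes of -0.34 (standard error 0.26) and -0.32 (standard error 0.24). *Hspg2*, which encodes perlecan, had -0.13 (standard error 0.25), and *Agrn*, which encodes agrin, had 0.17 (standard error 0.18). The largest log2 changes of the list were those of the low-abundance genes *Egfl6*, 1.73 (standard error 1.23), and *Col4a4*, 0.88 (standard error 1.36), and of *Tinagl1*, -0.88 (standard error 0.58). The sign for *Col4a4* rests on WT0, at 0.068 FPKM, since its mean FPKM was 3.11 in WT and 2.39 in KO. *Col4a6*, a collagen IV chain of smooth muscle, was the single gene of the list whose groups did not overlap, at 6.88, 5.94 and 5.18 FPKM in WT and 3.62, 4.68 and 4.15 FPKM in KO (log2 change -0.52, standard error 0.37), against the background of 16.1% of all genes.

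The receptors of laminin were present in every library, and 0 of the 7 tested passed the adjusted or the unadjusted threshold in limma. *Itgb1*, the β subunit of most laminin-binding integrins, was between 340 and 413 FPKM in WT and between 334 and 400 FPKM in KO, with a log2 change of -0.03 (95% interval from -0.43 to 0.37). *Dag1*, which encodes dystroglycan, had -0.07 (standard error 0.21) and *Itga7*, the laminin-binding α subunit of muscle, had 0.13 (standard error 0.40). The 3 largest log2 changes were those of *Itga6*, 1.04 (standard error 0.79), *Itgb4*, 0.51 (standard error 0.40), and *Bcam*, which encodes a receptor of α5, 0.40 (standard error 0.34). *Itga6* and *Itgb4* together form the integrin of hemidesmosomes, which Schwann cells also carry. *Itga6* was at 3.71, 20.4 and 17.54 FPKM in WT0, WT1 and WT2 and at 8.88, 26.9 and 49.7 FPKM in KO0, KO1 and KO2. *Itgb4* was at 8.51, 9.76 and 8.49 FPKM in the WT libraries and at 7.02, 15.5 and 19.0 FPKM in KO0, KO1 and KO2. Both were highest in KO1 and KO2.

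The dystrophin complex links dystroglycan, and through it laminin, to the cytoskeleton. Of 12 genes 10 were tested, and 0 passed the adjusted threshold in limma. An unadjusted p under 0.05 was reached by 1, *Sspn*, against 8.28% of all genes tested. *Sspn*, which encodes sarcospan, was at 20.1, 18.3 and 25.9 FPKM in the WT libraries and at 13.9, 13.6 and 13.6 FPKM in the KO libraries (log2 change -0.63, standard error 0.22, adjusted p = 0.564 from limma). *Sgcb*, which encodes a sarcoglycan, had a log2 change of -0.89 (standard error 0.49). *Dtnb*, which encodes a dystrobrevin, had 0.64 (standard error 0.33), with groups that did not overlap, against the background of 8.21% for genes higher in KO. *Sspn* was, of 130 genes of the lists, the one most like *Lamb2* over the 6 libraries (r = 0.98). Of 8 genes for the glycosylation of dystroglycan, 7 were tested, 0 passed either threshold, and 4 had groups that did not overlap with KO higher, against the background of 8.21%. These 4 were *Pomt1*, *Pomt2*, *Large* and *Ispd*. The largest log2 changes were those of *Pomt1*, 2.82 (standard error 1.41), which was listed at 0 in WT2, *Ispd*, 1.19 (standard error 0.51), and *Pomt2*, 0.49 (standard error 0.30).

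**Figure D5:**
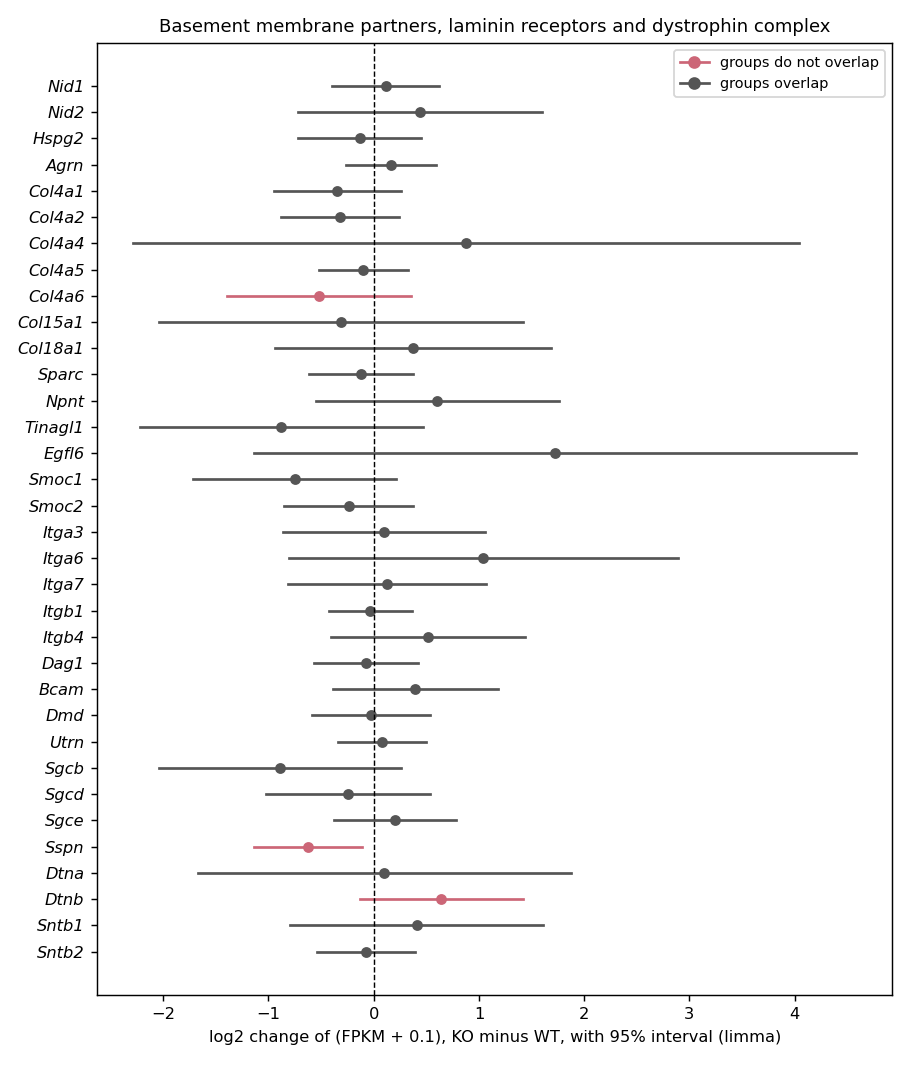
Log2 change of FPKM + 0.1 from WT to KO with its 95% interval from limma for the tested basement membrane partners, laminin receptors and dystrophin complex genes. Genes in red (*Col4a6*, *Sspn* and *Dtnb*) have groups that do not overlap, and the interval of *Sspn* runs from -1.14 to -0.11.

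Netrins share the N-terminal domain of laminin chains. Of 6 genes 4 were tested, with 0 past either threshold in limma. *Ntng1* had groups that did not overlap, against the background of 8.21% for genes higher in KO. Its FPKM was 3.04, 1.16 and 0.76 in WT and 4.57, 3.07 and 5.11 in KO (log2 change 1.501, standard error 0.69). *Ntn4*, a basement membrane netrin, had 2.27 (standard error 1.38), with a value listed at 0 in WT2, and *Ntn3* had 1.11 (standard error 1.44). *Ntn3* was likewise listed at 0 in WT2, and its mean FPKM was the higher in WT, at 1.76 against 1.64 in KO, so that its positive log2 change rests on that value.

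Among the 130 tested genes of the lists, those most like each chain over the 6 libraries differed between chains. The highest Pearson's r was with *Ngfr*, a receptor of Schwann cells, for *Lama4* (0.97) and *Lamc1* (0.95), with *Itgb4* for *Lama2* (0.93), with the myelin gene *Mal* for *Lama3* (0.94) and with the neuron gene *Snap25* for *Lamb1* (0.985). It was with *Agrn* for *Lama5* (0.95), with *Smoc1* for *Lama1* (0.73) and with *Hspg2* for *Lamc3* (0.74). *Mal* was listed at 0 in WT1. *Snap25* was near the floor, at 0, 0.56 and 0.043 FPKM in WT0, WT1 and WT2 and at 0, 2.32 and 4.30 FPKM in KO0, KO1 and KO2. For *Lamb1* the next highest r was with the endothelial gene *Kdr* (0.97), and the lowest was with another endothelial gene, *Erg* (-0.91). With 6 libraries many genes reach such values. For instance, 144 of the 12954 other tested genes had an r of at least 0.9 with *Lama4* and 250 with *Lamb2*.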

How the data were processed

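RNA was sequenced from the E17.5 DA in 3 WT and 3 KO libraries, which were grouped by their titles. The authors trimmed the reads, aligned them to mm10 with TopHat2 and deposited FPKM values from Cufflinks. Versions, gene annotation, strand setting and scaling between libraries are not given in the sources used here. The upper quartile was 10.4 to 10.8 FPKM in every library, whereas the summed FPKM ran from 412200 to 818500, and no libraries were identical. The depth is unknown.

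From the deposited FPKM, log2(FPKM + 0.1) was fitted for 12955 genes with a mean of at least 1 FPKM, by limma 3.58.1 in R 4.3.3 (moderated, variance trended on mean level). Its two-sided p values were adjusted over all these genes by Benjamini-Hochberg. Cuffdiff, named in the study's methods, needs aligned reads and was not repeated. Single chains were compared by two-sided exact permutation. The fit was tested on simulated data. Positions and exons are from GENCODE vM21 (GRCm38). Members and lists were chosen with earlier results of these data known, and some genes of the lists are not reported here and were left out of their counts and sums. All 9 members are named, and from each list of related genes the 3 largest absolute log2 changes and the preset partners. Most marker lists are given by their sums and several by their first gene, and other genes were named after their values were seen. Alternatives covered the pseudocount, filter, scaling, variance model, replicate block and each library left out.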

Additional observations from a re-analysis of the deposited data

How the results depend on the processing

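The directions of *Lama2*, *Lama3*, *Lama4*, *Lamb1* and *Lamb2* were kept in all 17 alternatives, and none of the 9 chains reached an adjusted p under 0.05 in any of them. The log2 change of *Lamb2* lay between -0.96 and -0.47, with an unadjusted p between 0.00723 and 0.0371 and an adjusted p between 0.418 and 0.871 from limma. With a library left out, *Lama1* ranged from -0.75 to 0.36 (turned without WT0), *Lama5* from -0.0011 to 0.56 and *Lamc3* from -0.043 to 0.63 (both turned without KO1), and the log2 ratio of *Lama4* to *Lama5* from -0.13 to 1.07 (turned without KO2). With the libraries scaled to the same summed FPKM, *Lama5* (-0.16), *Lamc1* (-0.13) and *Lamc3* (-0.059) turned, *Lama2*, *Lama4* and *Lamb1* were at 0.079, 0.35 and 0.17, the median over all genes was -0.30 and the count of called genes was 3. That sum was 50.7% *Scarna2* in KO2, whose other genes the scaling lowered, and was between 412200 and 577600 FPKM in the other libraries. *Lama1* could not be fitted with a mean FPKM of at least 5. The count of called genes, 1 (*Rn45s* in every alternative), was 2 without the trend, 2 without moderation and 2 without WT1 and KO2 (this and the summed scaling were chosen after the data were seen), and 1 to 2 with a library left out.

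The library numbers pair the samples in no source, and same-numbered libraries deviated together with r = 0.12, -0.076 and -0.0088, so no pairing was assumed. With the replicate block the count of called genes stayed at 1, and *Lama4* had a log2 change of 0.73 (unadjusted p = 0.0106, adjusted p = 0.452 from limma). With 6 libraries of unknown depth, the intervals of 8 chains include 0, which does not show that they were equal.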
